A study of Coturnix japonica with 15 samples.

Results

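Cholesterol is built from acetyl units through mevalonate, isopentenyl and farnesyl diphosphates and squalene, and the 8 genes described here belong to that arm, to its control or to the handling of its product. They are the synthesis genes HMGCS1, IDI1, FDPS, FDFT1 and SQLE, the control genes SREBF2 and INSIG1, and the sterol carrier gene STARD4. The genes were picked by symbol in the NCBI gene table of Coturnix japonica, and all 8 symbols matched 1 gene ID each among the 20308 IDs of the deposited count table. The samples were left-lobe livers of Japanese quail at embryonic day 9, as 15 RNA-seq libraries in 3 groups of 5. Eggs were injected once, with 10 µl into the air cell, and then incubated at 37 °C and 60% humidity. The solvent group received DMSO, and the other groups received ethinylestradiol, a synthetic oestrogen, at 3.33 or 33.3 µg per g of egg weight. Strain, sex and whether each library came from its own embryo are not stated in the labels, so p-values measure the spread between libraries, which may be partly technical. The comparisons asked whether an oestrogen given before incubation altered the level of these transcripts in the embryonic liver, and whether the doses differed.

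In the vertebrate liver this arm is switched on when membrane sterol is scarce. SREBF2 encodes SREBP2, a transcription factor held in the endoplasmic reticulum as a precursor. The escort protein SCAP carries the precursor to the Golgi when sterol is low, proteases release the active part, and genes such as HMGCS1, IDI1, SQLE and INSIG1 are then transcribed. INSIG1 encodes the anchor that keeps SCAP and the precursor in the reticulum. In laying birds oestrogen drives the liver to make the lipoproteins of egg yolk, which carry cholesterol.

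Library totals ran from 21715273 to 54591426 estimated counts (median 28086522), and each of the 8 genes passed the low-count filter, with SQLE the lowest at 70 to 564 estimated counts per library. Levels are CPM, counts scaled to a TMM-adjusted library total of 1000000, and means are given ± SD with n = 5 libraries. The 6 hepatocyte markers with an ID, of 8 listed, summed to 146845 to 183405 CPM with solvent, 58221 to 167163 CPM at 3.33 µg/g and 79432 to 171104 CPM at 33.3 µg/g. The lowest sums of the treated groups were in 2 libraries with a low albumin share, 3.33 µg/g replicate 4 (4.85% of counts) and 33.3 µg/g replicate 1 (5.87%), against 9.71% to 13.3% in the other libraries. Albumin was the largest part of these sums, at a mean of 104895 CPM over all libraries. The low sums and the low albumin shares are therefore not independent observations. In 4 libraries the mean of 637 genes of chromosome Z was low, at 3.01 to 3.10 log2 CPM, where the remaining 11 libraries had 3.36 to 3.56. These were solvent replicate 3, 3.33 µg/g replicates 3 and 4 and 33.3 µg/g replicate 1. Summed levels of 7 endothelial markers (286 to 418 CPM over all libraries), 6 macrophage markers of 7 listed (63.1 to 154 CPM), 8 stellate markers (1379 to 2832 CPM), 3 biliary markers of 5 listed (119 to 242 CPM) and 3 erythroid markers of 13 listed (60.8 to 182 CPM) overlapped between the 3 groups. The biliary sum was mostly EPCAM. Its mean was lower with treatment, at 155 CPM with solvent, 129 CPM at 3.33 µg/g and 109 CPM at 33.3 µg/g. SPP1 and SOX9 had higher means with treatment. SPP1 was at 11.3 ± 1.78 CPM with solvent, 35.6 ± 34.6 CPM at 3.33 µg/g and 27.9 ± 22.2 CPM at 33.3 µg/g. SOX9 was at 2.79 ± 0.932, 12.4 ± 16.9 and 5.03 ± 3.50 CPM. The medians were 11.4, 11.2 and 18.4 CPM for SPP1 and 2.82, 3.40 and 3.53 CPM for SOX9. None of the 3 biliary markers passed (median log2 fold change 1.65 and 0.85, with 2 of 3 above 0 at each dose). All 6 hepatocyte markers had log2 fold changes below 0 at both doses (medians −0.59 and −0.32). C1QB, a macrophage marker, rose at 3.33 µg/g (log2 fold change 0.87, adjusted p = 0.0234). Its mean was 8.16 CPM with solvent, 14.9 CPM at 3.33 µg/g and 8.37 CPM at 33.3 µg/g. The median log2 fold change of the 6 macrophage markers was 0.77 at 3.33 µg/g (5 above 0) and −0.02 at 33.3 µg/g (3 above 0). FGB, a fibrinogen chain made by hepatocytes, fell by 1.05 on the log2 scale at 33.3 µg/g (adjusted p = 0.0454). The part of these markers in the results below was not tested. No marker with an ID was at 0 in all libraries.

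None of the 8 genes passed the test in any comparison, with edgeR's quasi-likelihood test and an adjusted p under 0.05 over 14508 genes. Most had fitted values above 0. In bulk liver, fewer cells of a type and less RNA per cell cannot be told apart. At 3.33 µg/g against solvent 0 of 8 passed, where 1.38% of all tested genes did, and 2 of 8 had an unadjusted p under 0.05 against 14.6% of all genes. At 33.3 µg/g against solvent 0 of 8 passed, where 1.08% of all genes did, and 4 of 8 had an unadjusted p under 0.05 against 10.8%. The median log2 fold change of the 8 genes was 0.20 at 3.33 µg/g, with 7 of 8 above 0, and 0.42 at 33.3 µg/g, with 8 of 8 above 0. Over all tested genes the medians were 0.0042 and −0.00015, with 50.8% and 50.0% of values above 0. Both comparisons share the solvent libraries, so these directions are not independent of each other. The 8 genes share libraries too, and some varied together as described below, so they are not 8 separate observations. They were also chosen with earlier results of these data known. DESeq2 and limma-voom also called 0 of the 8 genes at either dose.

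**Figure D1:**
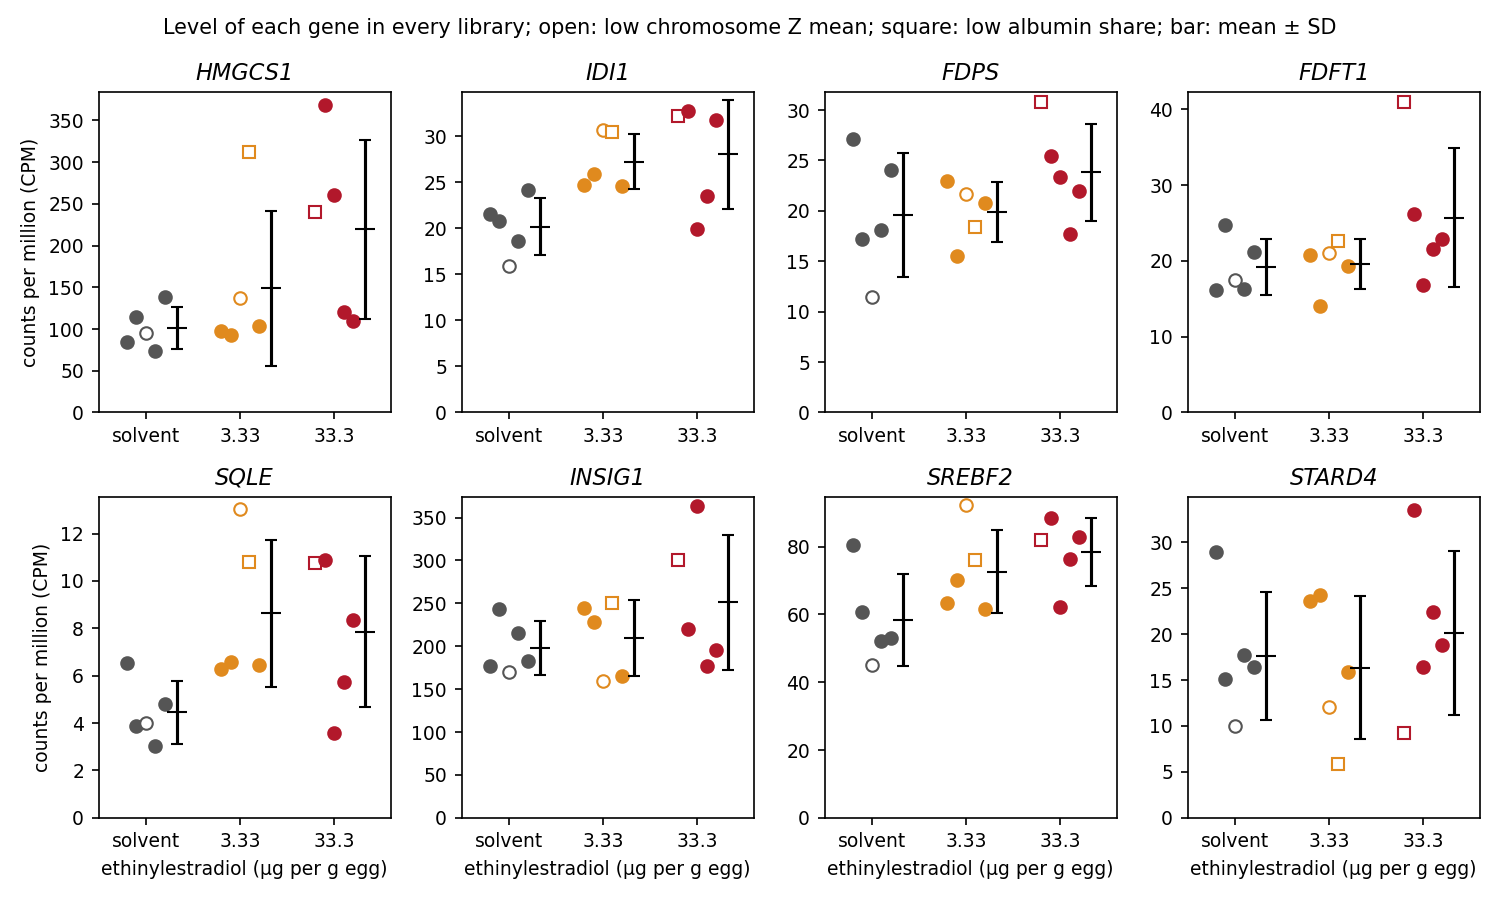
Level of each of the 8 genes in every library (CPM, linear axis from 0) by dose group, with the mean ± SD of 5 libraries beside the points; open symbols are the 4 libraries of low chromosome Z mean and squares the 2 libraries of low albumin share. IDI1 at 3.33 µg/g lies above every solvent library, and HMGCS1 splits into a low set and 4 high treated libraries.

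HMGCS1 (gene ID 107305956) encodes the cytosolic synthase that joins acetyl-CoA to acetoacetyl-CoA, an early step of the arm. With solvent it was at 84.3, 115, 95.1, 74.0 and 139 CPM in replicates 1 to 5. At 3.33 µg/g it was at 97.4, 92.3, 138, 313 and 104 CPM, and at 33.3 µg/g at 240.0, 368, 260.3, 119.9 and 110.2 CPM. Thus 1 library at 3.33 µg/g and 3 at 33.3 µg/g stood above every solvent library, and the remaining treated libraries lay within the solvent range. The mean went from 101 ± 25.7 CPM with solvent to 149 ± 93.3 and 219.8 ± 107 CPM. The log2 fold change was 0.55 at 3.33 µg/g (95% interval −0.24 to 1.35, adjusted p = 0.541) and 1.12 at 33.3 µg/g (0.31 to 1.92, unadjusted p = 0.00969, adjusted p = 0.245). The value at 3.33 µg/g rested on replicate 4, a library of low albumin share and low chromosome Z mean, and was 0.09 without it. Its biological coefficient of variation was 0.41, above that of 86.2% of tested genes, for a median of 0.19 over all genes.

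HMGCS1 reads were divided by the authors' quantification over 5 transcript entries, of which the second and the fifth held most. The level of the second entry was 17.2 to 102 CPM with solvent, 48.5 to 285 CPM at 3.33 µg/g and 61.2 to 326 CPM at 33.3 µg/g. The fifth entry was at 17.7 to 55.2, 14.7 to 42.0 and 10.7 to 50.7 CPM in the same groups. The 4 libraries with the highest HMGCS1 level were therefore high in the second entry, which took 88.0% to 91.9% of the gene in them, and not in the fifth. The share of the second entry was 54.2% ± 22.7 with solvent, 68.8% ± 18.6 at 3.33 µg/g and 75.5% ± 19.2 at 33.3 µg/g (exact two-sided permutation tests against solvent, p = 0.318 and 0.167; adjusted over 4 such tests, 0.318 and 0.233). The shares fell into a high set, 73.9% to 91.9% in 7 libraries of all 3 groups, and a lower set of 23.3% to 57.5% in the other 8. The file names entries by gene ID only, and the sequence by which they differ was not used here.

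**Figure D2:**
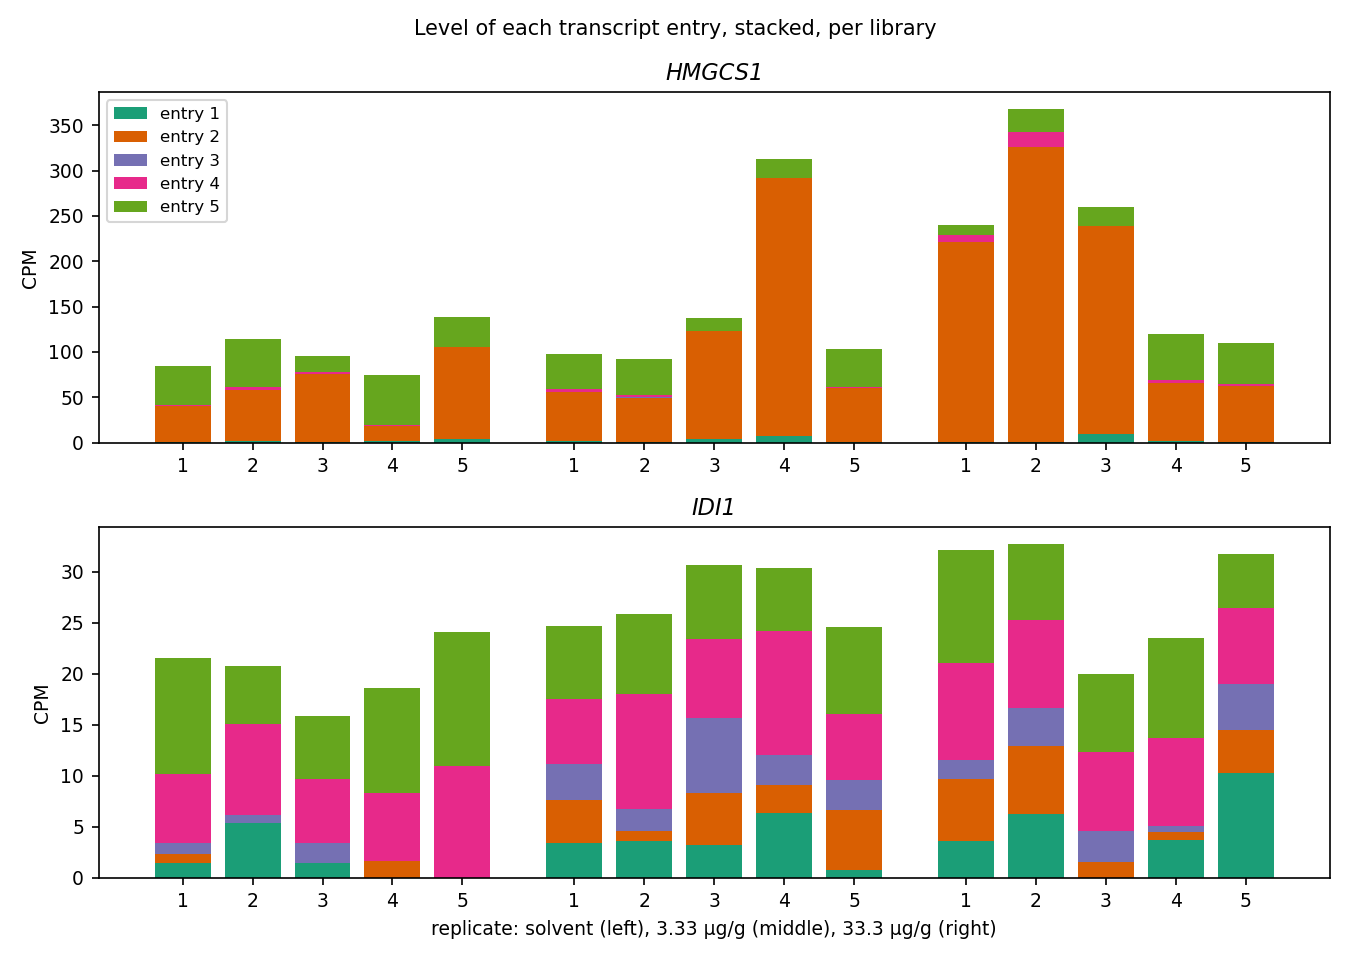
Level (CPM) of each transcript entry of HMGCS1 (upper panel) and IDI1 (lower panel), stacked per library, replicates 1 to 5 of each group from left to right. The second entry of HMGCS1 reaches 285 CPM in 3.33 µg/g replicate 4 and 326 CPM in 33.3 µg/g replicate 2, while the fifth stays between 10.7 and 55.2 CPM in all 15 libraries.

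IDI1 (gene ID 107308912) encodes the isomerase that interconverts isopentenyl and dimethylallyl diphosphate, the building blocks of farnesyl diphosphate. It was at 21.5, 20.8, 15.9, 18.6 and 24.1 CPM with solvent and at 24.7, 25.9, 30.6, 30.4 and 24.6 CPM at 3.33 µg/g. All 5 libraries at 3.33 µg/g were above the highest solvent library, a separation upward that 2.3% of all tested genes showed. At 33.3 µg/g it was at 32.1, 32.7, 19.96, 23.5 and 31.7 CPM, with 3 libraries above every solvent library and replicates 3 and 4 inside the solvent range. The log2 fold changes were 0.43 (95% interval 0.12 to 0.74, adjusted p = 0.167) and 0.47 (0.16 to 0.78, adjusted p = 0.190). Without the 4 libraries of low chromosome Z mean the first was 0.24 (adjusted p = 0.624). IDI1 varied less than the other 7 genes, with a biological coefficient of variation of 0.17. With the 2 doses averaged against solvent its log2 fold change was 0.45 (SE 0.13, adjusted p = 0.0929), with 8 of 10 treated libraries above every solvent library.

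IDI1 also had 5 transcript entries. The fifth and the fourth held most of the gene with solvent, at means of 45.8% and 39.1%. The mean share of the fifth went down more than that of the fourth. The fifth took 45.8% ± 12.3 with solvent, 27.6% ± 5.78 at 3.33 µg/g and 30.7% ± 10.6 at 33.3 µg/g. Entry 3 took 4.14% ± 4.915, 13.8% ± 6.385 and 9.81% ± 5.49 in the same groups. For both entries the treated shares overlapped those with solvent, and neither share was tested. The tests were of the fourth entry only. The fourth took 39.1% ± 5.56 of the gene with solvent, 32.1% ± 8.98 at 3.33 µg/g and 31.1% ± 6.70 at 33.3 µg/g (exact two-sided permutation tests against solvent, p = 0.175 and 0.0794; adjusted over the 4 tests, 0.233 for both). The second entry was at 0 to 1.69 CPM with solvent, 1.06 to 5.84 CPM at 3.33 µg/g and 0.811 to 6.65 CPM at 33.3 µg/g, so the highest solvent value lay inside the lower part of both treated ranges. Entry 3 was at 0 to 1.905, 2.13 to 7.45 and 0.556 to 4.48 CPM in these groups. Its 3.33 µg/g values lay above every solvent value, and how often other entries separate like this was not counted. In CPM the mean of the fourth entry was 7.94, 8.78 and 8.405, and that of the fifth 9.33, 7.40 and 8.23. The means of entries 1, 2 and 3 were higher at both doses than with solvent. These levels were not tested. Divisions of this kind are estimates for entries that can share sequence.

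FDPS (gene ID 107324526) makes farnesyl diphosphate, from which sterols, ubiquinone and protein prenyl groups branch. It was at 27.1, 17.2, 11.4, 18.1 and 24.1 CPM with solvent. At 3.33 µg/g it was at 23.0, 15.5, 21.7, 18.4 and 20.8 CPM, and at 33.3 µg/g at 30.8, 25.4, 23.3, 17.7 and 21.9 CPM. The solvent range covered every library at 3.33 µg/g, and 33.3 µg/g replicate 1 alone was above it. The log2 fold changes were 0.02 (95% interval −0.41 to 0.45, adjusted p = 0.977) and 0.28 (−0.14 to 0.71, adjusted p = 0.701). The latter was 0.43 without solvent replicate 1, 0.14 without solvent replicate 3, 0.17 without 33.3 µg/g replicate 1 and 0.03 without the 4 libraries of low chromosome Z mean.

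FDFT1 (gene ID 107312392), squalene synthase, joins farnesyl units in the first step that leads to sterols alone. Its levels were 16.1, 24.7, 17.5, 16.2 and 21.2 CPM with solvent. They were 20.8, 14.1, 21.1, 22.6 and 19.4 CPM at 3.33 µg/g and 41.0, 26.2, 16.8, 21.6 and 22.9 CPM at 33.3 µg/g. The groups overlapped, and the value of 41.0 CPM belongs to 33.3 µg/g replicate 1, a library of low albumin share. Against solvent the log2 fold changes were 0.03 (95% interval −0.41 to 0.47, adjusted p = 0.966) and 0.42 (−0.02 to 0.86, adjusted p = 0.487). Without 33.3 µg/g replicate 1 the latter was 0.18, and without the 4 libraries of low chromosome Z mean 0.16.

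SQLE (gene ID 107310534), squalene epoxidase, adds the oxygen that starts ring closure. Its solvent levels were 6.53, 3.87, 3.99, 3.03 and 4.82 CPM, and it stood at 6.30, 6.57, 13.0, 10.8 and 6.46 CPM at 3.33 µg/g. At 33.3 µg/g the levels were 10.7, 10.9, 3.599, 5.75 and 8.35 CPM. At each dose 3 of 5 libraries were above the highest solvent library, replicate 1, and the groups overlapped. The mean went from 4.45 ± 1.33 CPM to 8.63 ± 3.10 and 7.86 ± 3.17 CPM. The log2 fold changes were 0.95 (95% interval 0.28 to 1.61, unadjusted p = 0.00819, adjusted p = 0.157) and 0.82 (0.16 to 1.48, unadjusted p = 0.0187, adjusted p = 0.327). The value at 3.33 µg/g was 0.49 without the 4 libraries of low chromosome Z mean, which include both libraries above 10 CPM in that group.

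SREBF2 (gene ID 107313119) was at 80.4, 60.8, 45.02, 52.3 and 53.0 CPM with solvent. It was at 63.2, 70.0, 92.1, 76.0 and 61.7 CPM at 3.33 µg/g and at 81.9, 88.4, 62.2, 76.2 and 82.8 CPM at 33.3 µg/g. Solvent replicate 1 lay among the treated libraries, and the other 4 solvent libraries were below every treated library. Fold changes of SREBF2 on the log2 scale were 0.32 (95% interval −0.01 to 0.64, adjusted p = 0.353) and 0.43 (0.10 to 0.75, unadjusted p = 0.0130, adjusted p = 0.282). Without solvent replicate 1 they were 0.46 and 0.57. Without the 4 libraries of low chromosome Z mean they were 0.08 and 0.33.

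INSIG1 (gene ID 107308738) was at 177, 244, 170.0, 215 and 183 CPM with solvent. It was at 245, 229, 159.9, 251 and 165 CPM at 3.33 µg/g and at 300.3, 221, 363, 177 and 195 CPM at 33.3 µg/g. The 2 highest libraries, 33.3 µg/g replicates 3 and 1, were also among the 4 high libraries of HMGCS1, whereas replicate 3 was the lowest of its group for IDI1, SQLE and SREBF2. For INSIG1 the log2 fold changes were 0.08 (95% interval −0.33 to 0.50, adjusted p = 0.892) and 0.34 (−0.07 to 0.76, adjusted p = 0.586). Without 33.3 µg/g replicate 3 the latter was 0.17, and without the 4 libraries of low chromosome Z mean 0.22.

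STARD4 (gene ID 107306361) encodes a small cytosolic protein that carries sterol between membranes. Its levels were 28.9, 15.1, 10.0, 17.7 and 16.4 CPM with solvent. They were 23.6, 24.3, 12.0, 5.91 and 15.8 CPM at 3.33 µg/g and 9.29, 33.5, 16.4, 22.4 and 18.8 CPM at 33.3 µg/g. Each group spanned low and high values, and STARD4 had the widest range of the 8 genes, its highest library being 5.67 times its lowest. The log2 fold changes were −0.11 (95% interval −0.92 to 0.70, adjusted p = 0.929) and 0.19 (−0.62 to 0.998, adjusted p = 0.932). The sign at 3.33 µg/g turned without solvent replicate 1 (0.14) or 3.33 µg/g replicate 4 (0.10), and that at 33.3 µg/g without its replicate 2 (−0.08).

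STARD4 and HMGCS1 lie on chromosome Z in the reference assembly Coturnix japonica 2.1. In birds males carry a pair of Z chromosomes and females a single one, and many Z genes are not fully evened out between the sexes. STARD4 was at 5.91 to 12.0 CPM in the 4 libraries of low chromosome Z mean and at 15.1 to 33.5 CPM in the other 11, without overlap. Of 645 tested Z genes 27.8% were lower in all 4 of those libraries than in all others, as were 0.361% of 13863 other genes. The 4 libraries were picked by the mean of 637 of these Z genes, so a higher share on chromosome Z follows from that choice. STARD4 and HMGCS1 were left out of that mean. The gene total of HMGCS1 did not separate in this way, at 95.1 to 313 CPM in the 4 libraries and 74.0 to 368 CPM in the rest. Entry 5 of HMGCS1 did by a narrow margin, at 10.7 to 20.55 CPM in the 4 libraries and 21.2 to 55.2 CPM in the other 11. The share of transcript entries that separate in this way was not counted. The share of entry 2 was 79.0% to 91.9% in the 4 libraries, but 33.3 µg/g replicate 2, outside them, also had 88.6%. The link of these entries to the chromosome Z mean was not tested. With the chromosome Z mean as a covariate the log2 fold changes of STARD4 were −0.18 at 3.33 µg/g (adjusted p = 0.725) and −0.01 at 33.3 µg/g (adjusted p = 0.988), and those of HMGCS1 0.43 (0.614) and 1.19 (0.155). The part of the chromosome Z level in the spread of the other genes was not tested.

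**Figure D3:**
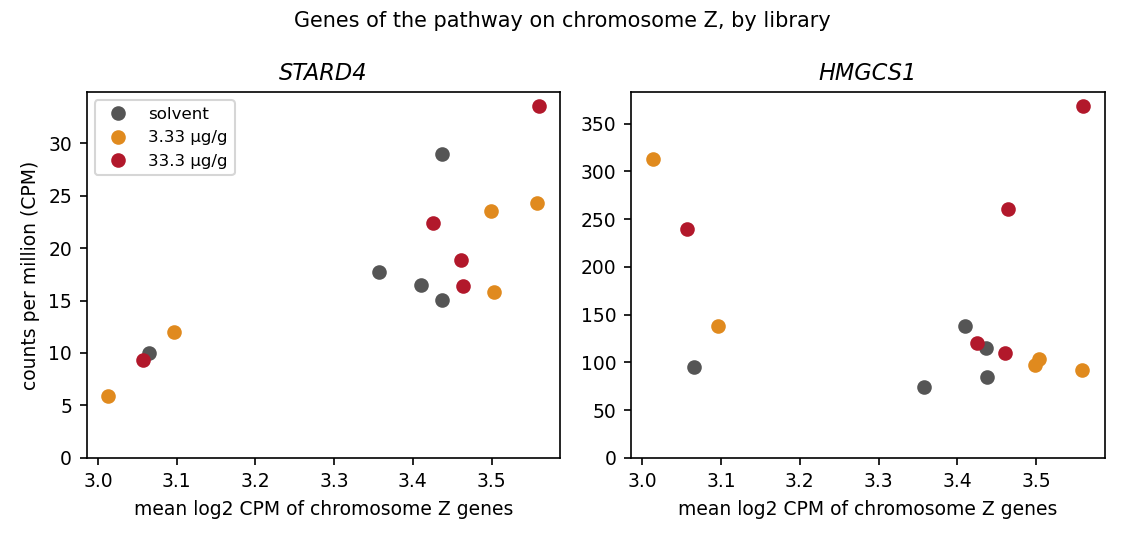
Level (CPM) of STARD4 and HMGCS1 in each library against the mean log2 CPM of chromosome Z genes, coloured by dose group. The 4 libraries at 3.01 to 3.10 on the horizontal axis hold the 4 lowest STARD4 levels, 5.91 to 12.0 CPM, whereas HMGCS1 reaches 313 CPM among them.

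Between the doses 0 of 8 genes passed, as did 0% of all tested genes, and 0 of 8 had an unadjusted p under 0.05 against 5.55% of all genes. DESeq2 and limma-voom called 0 of the 8 here too. The largest of the 8 differences was that of HMGCS1 (log2 fold change of 33.3 over 3.33 µg/g 0.56, 95% interval −0.23 to 1.36, adjusted p = 0.947), which was 1.03 without 3.33 µg/g replicate 4. The intervals of FDFT1 (−0.05 to 0.83) and SQLE (−0.78 to 0.52) likewise held 0, and leave room for differences in either direction. With the doses averaged against solvent 0 of 8 genes passed, where 1.96% of all genes did, and 4 of 8 had an unadjusted p under 0.05 against 14.7%. These were IDI1, SQLE (log2 fold change 0.88, adjusted p = 0.133), SREBF2 (0.37, adjusted p = 0.193) and HMGCS1 (0.84, adjusted p = 0.251), by edgeR's quasi-likelihood test. All 10 treated libraries were above every solvent library for 0 of the 8 genes and for 0.986% of all tested genes. For this average IDI1 passed without 33.3 µg/g replicate 3 (adjusted p = 0.0351), and IDI1 and SQLE passed with DESeq2 (adjusted p = 0.0253 and 0.0330).

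Library by library, after the group means were taken out, the genes did not all vary as a block. Over 15 libraries SQLE tracked IDI1 (Pearson r = 0.85, Spearman rho 0.74, r = 0.85 without the 2 libraries farthest from the IDI1 median) and SREBF2 (r = 0.79, rho 0.80, 0.71 without 2). The 10 pairs among IDI1, FDPS, FDFT1, SQLE and SREBF2 all had r above 0, from 0.26 to 0.85, although without the 2 farthest libraries FDPS with SREBF2 went from 0.48 to 0.02 and FDFT1 with SREBF2 from 0.26 to 0.07. INSIG1 had r below 0 with SQLE (−0.35), SREBF2 (−0.27) and IDI1 (−0.18), but 2 of these 3 signs turned without the 2 farthest libraries, to 0.06 and 0.08. HMGCS1 had r from 0.12 to 0.41 with the other genes except STARD4, for which it was −0.44, and its lowest positive value, with SREBF2, went to −0.06 without 2 libraries. These are descriptions, and values of the same library share its depth, its scaling and its cell makeup.

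**Figure D4:**
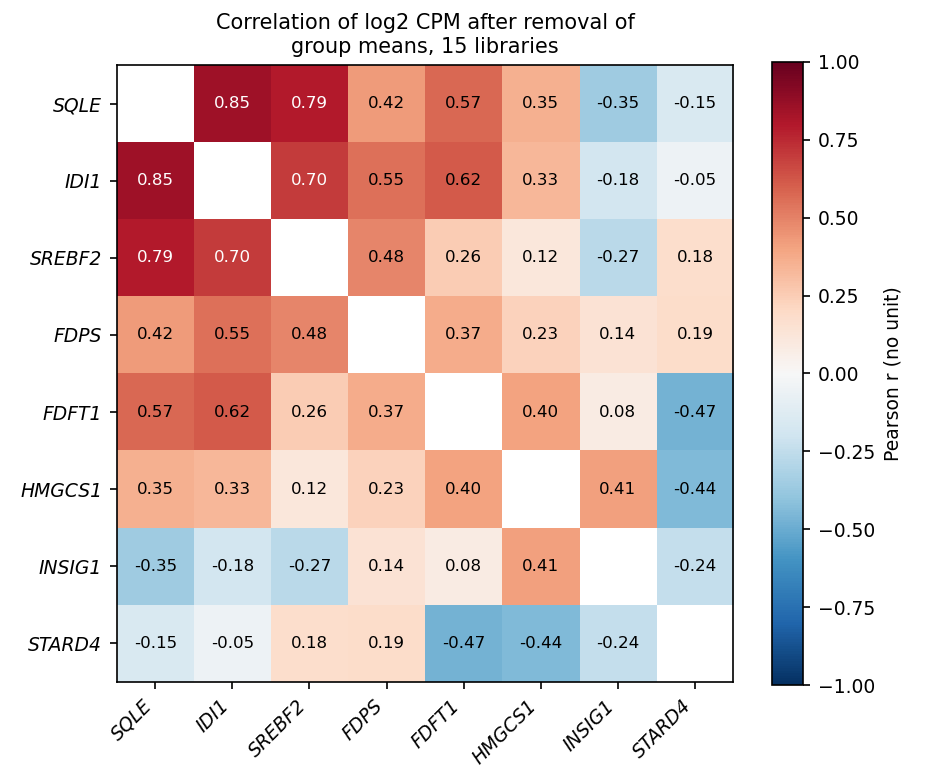
Pearson correlation of log2 CPM between the 8 genes over 15 libraries after removal of group means; red is above 0 and blue below. SQLE, IDI1 and SREBF2 form the darkest block (0.70 to 0.85), and each value below 0 involves INSIG1 or STARD4.

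Other genes of the pathway, from lists given in the methods, were read beside the 8. Of the 5 remaining genes of the mevalonate arm 0 passed at either dose (median log2 fold change 0.07 and 0.28). MVD, which makes isopentenyl diphosphate, was at 17.03 to 22.2 CPM with solvent and 21.6 to 26.7 CPM at 33.3 µg/g (0.32, SE 0.10, adjusted p = 0.215). At 3.33 µg/g its value was 0.07 (adjusted p = 0.816). MVK went the other way, at −0.26 and −0.03 (adjusted p = 0.195 and 0.962), and 4 of the 5 genes were above 0 at each dose.

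In late sterol synthesis 1 of 9 tested genes rose at 33.3 µg/g and 0 fell, with 9 of 9 values above 0 (median 0.45). None of the 9 passed at 3.33 µg/g (median 0.37). The gene that rose was EBP, the isomerase that moves the ring double bond. EBP was at 41.2, 35.3, 30.6, 39.3 and 40.6 CPM with solvent, and at 56.6, 61.6, 55.4, 44.9 and 55.5 CPM at 33.3 µg/g. All 5 treated libraries were above all solvent libraries (log2 fold change 0.55, SE 0.10, adjusted p = 0.0108), a separation that 1.84% of tested genes showed. EBP at 3.33 µg/g was at 44.3 to 53.4 CPM, also above every solvent library, a separation upward that 2.3% of tested genes showed at this dose. It did not pass there (0.39, SE 0.10, adjusted p = 0.0678), though it did with DESeq2 (0.0134) and without 33.3 µg/g replicate 4 (0.0494). The average of the doses passed for EBP (0.47, adjusted p = 0.0103). The 33.3 µg/g call ended with library totals as the only scaling (0.0573) and without the 4 libraries of low chromosome Z mean (0.0534). LSS, which closes the sterol rings, had values of 0.45 and 0.62 (adjusted p = 0.333 and 0.240).

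Among 11 genes that act on SREBP or on the turnover of sterol-regulated proteins, 1 fell at 3.33 µg/g and 0 passed at 33.3 µg/g. That gene was SCAP, the escort of the SREBP precursor. SCAP was at 35.2, 38.2, 35.5, 31.5 and 35.5 CPM with solvent and at 30.5, 24.4, 24.2, 22.4 and 24.9 CPM at 3.33 µg/g. All 5 libraries of the dose were below all solvent libraries (log2 fold change −0.48, SE 0.10, adjusted p = 0.0268), a separation downward that 1.6% of tested genes showed. At 33.3 µg/g SCAP was at 24.9 to 33.7 CPM (−0.30, SE 0.10, adjusted p = 0.246), and the average of the doses passed (−0.39, adjusted p = 0.0297). That last call ended without any of solvent replicates 1, 2, 3 and 5, 3.33 µg/g replicate 3 or 33.3 µg/g replicates 2 and 5 (adjusted p up to 0.0852), and its adjusted p was 0.0628 with both low-albumin libraries left out. The 3.33 µg/g call ended without any of solvent replicates 1, 2, 3 and 5 or 3.33 µg/g replicates 2, 3 and 4 (adjusted p up to 0.0721), and its adjusted p was 0.0577 without the libraries of low albumin share and 0.226 without the libraries of low chromosome Z mean. MBTPS1, the first protease of SREBP, had values of −0.13 and −0.12 (adjusted p = 0.437 and 0.637).

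**Figure D5:**
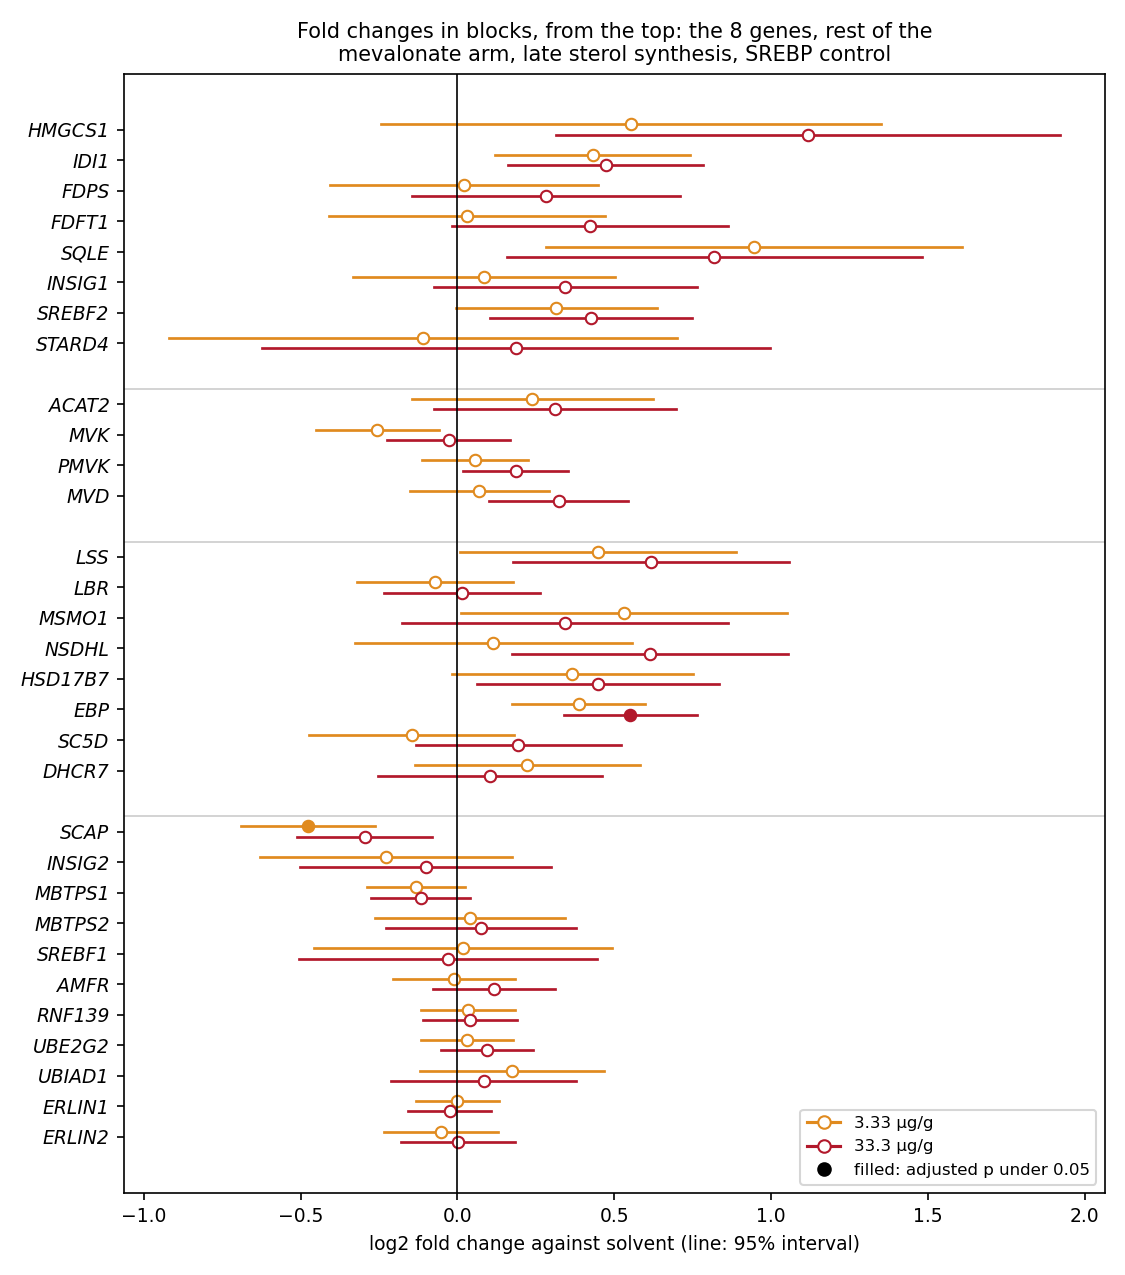
Log2 fold change against solvent at 3.33 and 33.3 µg/g with 95% intervals, for the 8 genes and, in blocks below them, the rest of the mevalonate arm, late sterol synthesis and SREBP control (not every gene of these lists is drawn); filled points passed an adjusted p of 0.05. The filled points are EBP at 33.3 µg/g (0.55) and SCAP at 3.33 µg/g (−0.48), and none of the 8 genes is filled.

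Branches and outlets of the pathway were read in the same way. Of 7 tested genes of the non-sterol branches 0 passed at either dose; NUS1, of dolichol synthesis, had log2 fold changes of 0.36 and 0.32 (adjusted p = 0.157 and 0.302), and PDSS2, of ubiquinone synthesis, −0.32 and −0.25 (0.105 and 0.302). Of 13 genes of sterol uptake and transfer 0 passed at a single dose. SCARB2, a lysosomal membrane protein, passed for the average of the doses and at neither dose by itself (−0.51, SE 0.12, adjusted p = 0.0448), falling from 237 ± 37.5 CPM to 162 ± 31.1 and 170.3 ± 27.1 CPM, and leaving out any of 11 single libraries ended that call (up to 0.130). SCARB2 at 3.33 µg/g (−0.55, adjusted p = 0.0765) passed with DESeq2 (0.0131), with the chromosome Z mean as a covariate (0.0435) and without 3.33 µg/g replicate 5 (0.0497). OSBPL9, a lipid transfer protein, had values of −0.33 and −0.25 (adjusted p = 0.233 and 0.510).

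Of 6 tested genes of the liver X receptor and sterol export 0 passed, with medians of −0.19 and −0.29. ABCG5, part of the sterol exporter of the bile canaliculus, was at 11.3 to 16.0 CPM with solvent, 9.55 to 13.5 CPM at 3.33 µg/g and 8.90 to 12.8 CPM at 33.3 µg/g (−0.31 and −0.32, adjusted p = 0.315 and 0.422). ABCA1, which loads sterol on lipoproteins, had values of −0.31 and −0.26 (0.490 and 0.719). Of 3 tested genes of esterification and bile acid synthesis, from 10 listed, 0 passed. LCAT, the plasma enzyme that esterifies cholesterol, was at 325 to 440 CPM with solvent and 116 to 269 CPM at 3.33 µg/g, without overlap (−0.91, SE 0.30, adjusted p = 0.161). A separation downward at this dose was shown by 1.6% of tested genes. At 33.3 µg/g LCAT was at 117 to 373 CPM (−0.64, adjusted p = 0.461). AMACR, of bile acid side chain oxidation, had values of −0.50 and −0.40 (adjusted p = 0.517 and 0.747). ABCA1 and AMACR also lie on chromosome Z, and the part of the chromosome Z level in their values was not tested.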

How the data were processed

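RNA of the left liver lobe was quantified by the authors with kallisto, per the submitters' processing notes. The sources used here name no version, index or build. The authors deposited kallisto's estimated counts for 47418 transcript entries named by NCBI gene ID, without normalization. Values were summed per ID and rounded to whole numbers, giving 20308 IDs, of which 18900 (93.1%) matched the gene table of Coturnix japonica 2.1. edgeR 4.0.16 in R 4.3.3 (filterByExpr, TMM, robust quasi-likelihood F-test) was fitted to all 15 libraries in 1 model of group, with Benjamini-Hochberg adjustment over 14508 genes and a threshold of 0.05. SE is the absolute log2 fold change over the square root of F, and 95% intervals use the t quantile of the fit. Medians and counts describe lists, which were not tested as sets.

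Members and lists were chosen with earlier results of these data known. The lists were the rest of the mevalonate arm, late sterol synthesis, non-sterol branches, SREBP control, sterol uptake and transfer, liver X receptor and sterol export, esterification and bile acids, and 6 lists of cell type markers. From each pathway list the genes that passed against solvent and the 2 with the smallest p for both doses were named. MVK was named as well, for its values in the other direction. Some genes that this rule or the likeness ranking picks are not reported here. Replicate numbers did not pair libraries: residual correlations exceeded 0.1 in 1 of 15 same-numbered pairs. Over 30 replicate pairs, chi-square per degree of freedom was at least 27.9, so none was a copy. The pipeline was tested on simulated data. Alternatives were RLE factors, library totals, 2 low-count filters, DESeq2 1.42.0, limma-voom (limma 3.58.1), a replicate block, fits to 2 groups, libraries left out and, chosen after seeing the data, the chromosome Z mean as a covariate or as a reason to leave out 4 libraries. The tests of transcript entry shares were also chosen after their values were seen. Figures used Python 3.11.15 and matplotlib 3.10.9.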

Additional observations from a re-analysis of the deposited data

Results flagged for a closer look

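Within each group of 5, the CPM of the 8 genes and of EBP, SCAP and SCARB2 was screened for a library far from the other 4, by the gap to its nearest neighbour over the range of the group. Of 33 such groups 1 stood out, and chance alone gives about 5%. It was HMGCS1 at 3.33 µg/g, where replicate 4 was at 313 CPM and the next library at 138 CPM, a gap of 0.794 of the range against a critical value of 0.71. The same library had a low albumin share (4.85%) and a low chromosome Z mean (3.01 log2 CPM); their part in its HMGCS1 level was not tested.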

How the results depend on the processing

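The count of 0 of the 8 genes called held under every alternative at 3.33 µg/g, at 33.3 µg/g and between the doses. For the average of the doses it was 2 with DESeq2 and 0 to 1 with each library left out. A replicate block called 0 of the 8 genes in every comparison; the replicate number does not pair these libraries, and with that block EBP at 33.3 µg/g (adjusted p = 0.0561), SCAP at 3.33 µg/g (0.0944), SCAP for the average (0.0984) and SCARB2 (0.0777) did not pass. The fit to 2 groups was not run for the average, which uses all 3.

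Some signs turned. Without the 4 libraries of low chromosome Z mean the log2 fold change at 3.33 µg/g was −0.072 for HMGCS1 (0.55 with all libraries), −0.13 for FDPS, −0.11 for FDFT1 and 0.12 for STARD4, that of FDPS for the average −0.048, and that of SQLE between the doses 0.15. Without the 2 libraries of low albumin share it was −0.024 for FDFT1 and 0.10 for STARD4 at 3.33 µg/g. With the chromosome Z mean as a covariate STARD4 was at −0.014 at 33.3 µg/g and −0.095 for the average, and with limma-voom at −0.016 for the average. With library totals only IDI1 was at −0.019 between the doses. With each library left out the values ran from −0.12 to 0.17 for FDPS and −0.027 to 0.14 for FDFT1 at 3.33 µg/g. They ran from −0.022 to 0.14 for IDI1 and −0.28 to 0.059 for SQLE between the doses. For STARD4 they ran from −0.30 to 0.14 at 3.33 µg/g, −0.080 to 0.44 at 33.3 µg/g and −0.11 to 0.29 for the average. The cause was not tested, and the fits that leave libraries out have fewer samples. Without the libraries of low chromosome Z mean EBP did not pass for the average (adjusted p = 0.0920), nor did SCAP (0.172) or SCARB2 (0.168), and SCARB2 had 0.0547 with limma-voom. Of 10 settings other than each library left out, 4 ended the SCARB2 call for the average.

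Over all genes the count of 200 called at 3.33 µg/g ran from 78 (without the libraries of low chromosome Z mean) to 656 (DESeq2), that of 157 at 33.3 µg/g from 93 to 386, that of 285 for the average from 147 to 707, and that of 0 between the doses from 0 to 19. SQLE had the fewest counts, 70 to 564 per library.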

Other observations

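Genes outside the 8 were ranked by how closely their log2 CPM, less group means, followed the mean of the standardised values of the 8 genes over 15 libraries. Of 8985 genes with a symbol and a mean of at least 5 CPM, those with the highest Pearson r that are reported here were HSP90B1, a chaperone of the endoplasmic reticulum (0.82), ANKLE2 (0.82), MTERF4 (0.82), PREPL (0.81) and TUFT1 (0.80). Of the late sterol synthesis genes reported here, several ranked near the top and others far lower. EBP was at rank 9 (0.79), MSMO1 at rank 23 (0.74), LSS at rank 39 (0.71) and NSDHL at rank 195 (0.60). DHCR7 was at rank 1093 (0.40), LBR at rank 3439 (0.13), HSD17B7 at rank 3962 (0.07) and SC5D at rank 6682 (−0.22). These are descriptions of 15 libraries that share depth, scaling and cell makeup. The highest r were picked from 8985 genes, and how high r would reach by chance among so many was not tested.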
